A study of Mus musculus with 9 samples.

Results

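The proteasome is the cell's main machine for destroying ubiquitin-tagged proteins. Its 20S core is a barrel of alpha and beta rings whose proteolytic sites face inwards, and a 19S cap with a ring of ATPases, a base and a lid receives, unfolds and feeds in the substrate. The testis is known for variant forms of this machine: spermatocytes and spermatids make the alpha subunit Psma8 beside its counterpart Psma7, and the activator Psme4 (PA200) is needed for normal sperm formation. Immune cells instead swap the 3 catalytic beta subunits for the inducible Psmb8, Psmb9 and Psmb10. The data described here cover the genes of the proteasome in mouse testis that lacks Profilin3, an actin-binding protein of spermatids.

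RNA came from testes, freed of the tunica albuginea, of sexually mature male C57BL/6 mice, a few months old by the study's methods, of 3 genotypes: Pfn3+/+ (WT), Pfn3+/- (Het) and Pfn3-/- (KO), with 3 animals each. The mutant alleles are CRISPR/Cas9 germline deletions in the single Pfn3 exon, and which of the study's deletion lines gave this RNA is not given in the sources used here. The proteasome genes were taken as the protein-coding genes whose symbol is Psm followed by a letter from a to g and a number, which gave 48 of the 38674 genes in the table. They are 8 alpha subunits, 4 beta subunits without a catalytic site, 3 constitutive catalytic and 4 inducible or thymic catalytic beta subunits, 6 ATPases, 3 further subunits of the 19S base, 8 of its lid, 7 assembly chaperones, and 5 activators or inhibitors. QuantSeq primes on the poly(A) tail and reads a single fragment near the 3′ end of each transcript, so the values, counts divided by a size factor per library (normalized counts), were not divided by transcript length. Of the 48 genes, 46 reached 10 normalized counts in 3 or more of the 9 libraries, and 42 lay above a limit of 3 reads in all 9.

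The libraries held 3375546 to 4287335 counted reads, so 3 reads stood for 2.58 to 3.71 normalized counts. Pfn3 itself had 592, 383 and 373 normalized counts in WT, 136, 339 and 326 in Het and 74.7, 215 and 279 in KO. All Het and KO animals thus lay below all WT animals. QuantSeq reads near the 3′ end, which lies outside the region between the guides, and where the Pfn3 reads fell was not examined. That level therefore does not check the deletion, for which the paper gives qRT-PCR, western blots and immunohistochemistry. WT replicate 1 stood apart from the rest: its correlation with the other 8 libraries across genes was 0.750 to 0.783, against up to 0.927 between other libraries. It was the highest or the lowest of the 9 libraries for 36 of 46 proteasome genes, where 51% of all genes put it at an end (highest for 16, beside 25.5%, and lowest for 20, beside 25.4%), so results against WT are given with and without it. Het replicate 1 and KO replicate 2 also lay apart, less far, with correlations of at most 0.827 and 0.858. They were at an end for 31.3% and 31.6% of all genes, and each for 9 of 46 proteasome genes. Elongating spermatid markers (Tnp1, Tnp2, Prm1, Prm2 and Oaz3) summed to 237489 to 257865 normalized counts in WT, 184748 to 223357 in Het and 131073 to 203391 in KO, round spermatid markers to 3677 to 4494, 3213 to 4303 and 2245 to 3163, and spermatocyte markers to 3738 to 4838, 3874 to 6070 and 5394 to 6540. All 5 markers of each of these 3 lists had signal, whereas Amh, a Sertoli cell marker of the immature testis, was at 0 in every library. The 5 Sertoli cell markers summed to 439 to 570 normalized counts in WT, 706 to 941 in Het and 591 to 1184 in KO, the Leydig cell markers to 1430 to 3542 and the spermatogonia markers to 224 to 291 over all libraries, and epididymis markers reached 8.69 at most. In bulk tissue, fewer cells of a type and less RNA per cell cannot be told apart, and the part of these marker differences in the results below was not tested.

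**Figure D1:**
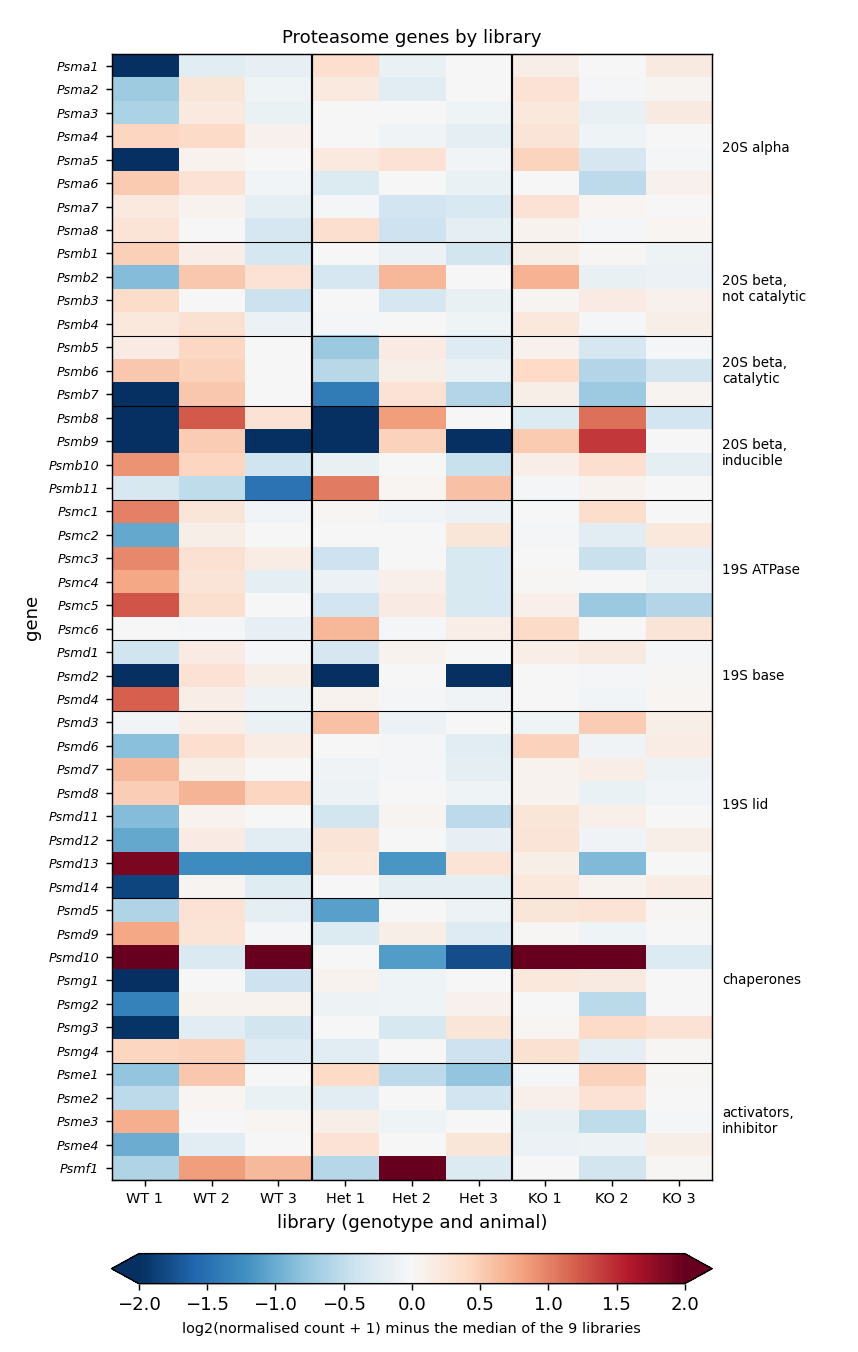
Each row is 1 of the 48 proteasome genes, grouped by role, and each column 1 library; colour gives log2(normalized count + 1) minus the gene's median over the 9 libraries, cut at 2 in either direction. WT 1 is the highest or lowest library for 36 of the 46 genes that reached 10 counts in 3 libraries, while dark cells in Psmd2, Psmd10 and Psmf1 mark libraries that lie far from others of the same genotype.

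No proteasome gene was called by limma as changed in the testes of KO mice. In KO against WT, 0 of the 46 members tested had an adjusted p under 0.05 and a change of more than 1.5 on the log2 scale, up or down, by limma, where 0.0352% of all 14223 genes tested did, and edgeR and DESeq2 on the recovered reads also called 0 members. At an unadjusted p under 0.05, 2 members were lower in KO (Psmd8 and Psmc3), against 5.03% of all genes, and 0 were higher, against 3.04%. KO and WT animals were without overlap for 4 members with KO above WT (9.41% of all genes) and for 3 with KO below (10.5%), so these counts lay near the share of all genes. The median log2 fold change of the members was 0.14, beside 0.02 over all genes, and 26 of 46 were higher in KO, beside 51.4% of all genes. Without WT replicate 1 the median was 0.00, beside -0.03, and 23 of 46 members were higher (47.3% of all genes). The animals then did not overlap for 7 members with KO above WT (14.7%) and 6 with KO below (17.5%), and 2 members in each direction had an unadjusted p under 0.05 (Psmg3 and Psmd13 higher, beside 3.93% of all genes, and Psmd8 and Psmf1 lower, beside 4.95%).

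Heterozygous testes also gave 0 called members of 46, and limma called 0% of the 14216 genes tested between Het and WT. Psmd8, Psmc3 and Psmd10 were lower at an unadjusted p under 0.05 (1.89% of all genes were), 0 members were higher (1.46%), and edgeR and DESeq2 called 0. Of the 46 members, 18 were higher in Het, beside 50.5% of all genes, and 13 of 46, beside 47.1%, without WT replicate 1. Their median log2 fold change was -0.15 with all libraries, beside 0.01 over all genes, and -0.15 again without that library. Het and WT did not overlap for 2 members with Het above WT (6.76% of all genes) and for 4 with Het below (6.49%), and without WT replicate 1 for 3 (11.2%) and 6 (11.7%). Psmd8 and Psmc3 kept an unadjusted p under 0.05 on the lower side without that library (1.14% of all genes), and 0 members had one on the higher side (1.55%).

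Between KO and Het, which does not involve the WT libraries, 0 of 45 members were called by limma, edgeR or DESeq2 (limma called 0.0558% of 14343 genes). Psmd10 and Psmd2 were higher in KO at an unadjusted p under 0.05 (1.74% of all genes), and 0 were lower (1.82%). Of the 45 members, 35 were higher in KO, beside 49.7% of all genes, with a median of 0.12 beside 0.00. For 5 members (Psmd5, Psmd14, Psma7, Psmb3 and Psme2) each KO animal lay above each Het animal, which 5.12% of all genes did, and for 0 each lay below (4.9%). The 3 comparisons share libraries in pairs, so their values are not independent of each other.

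**Figure D2:**
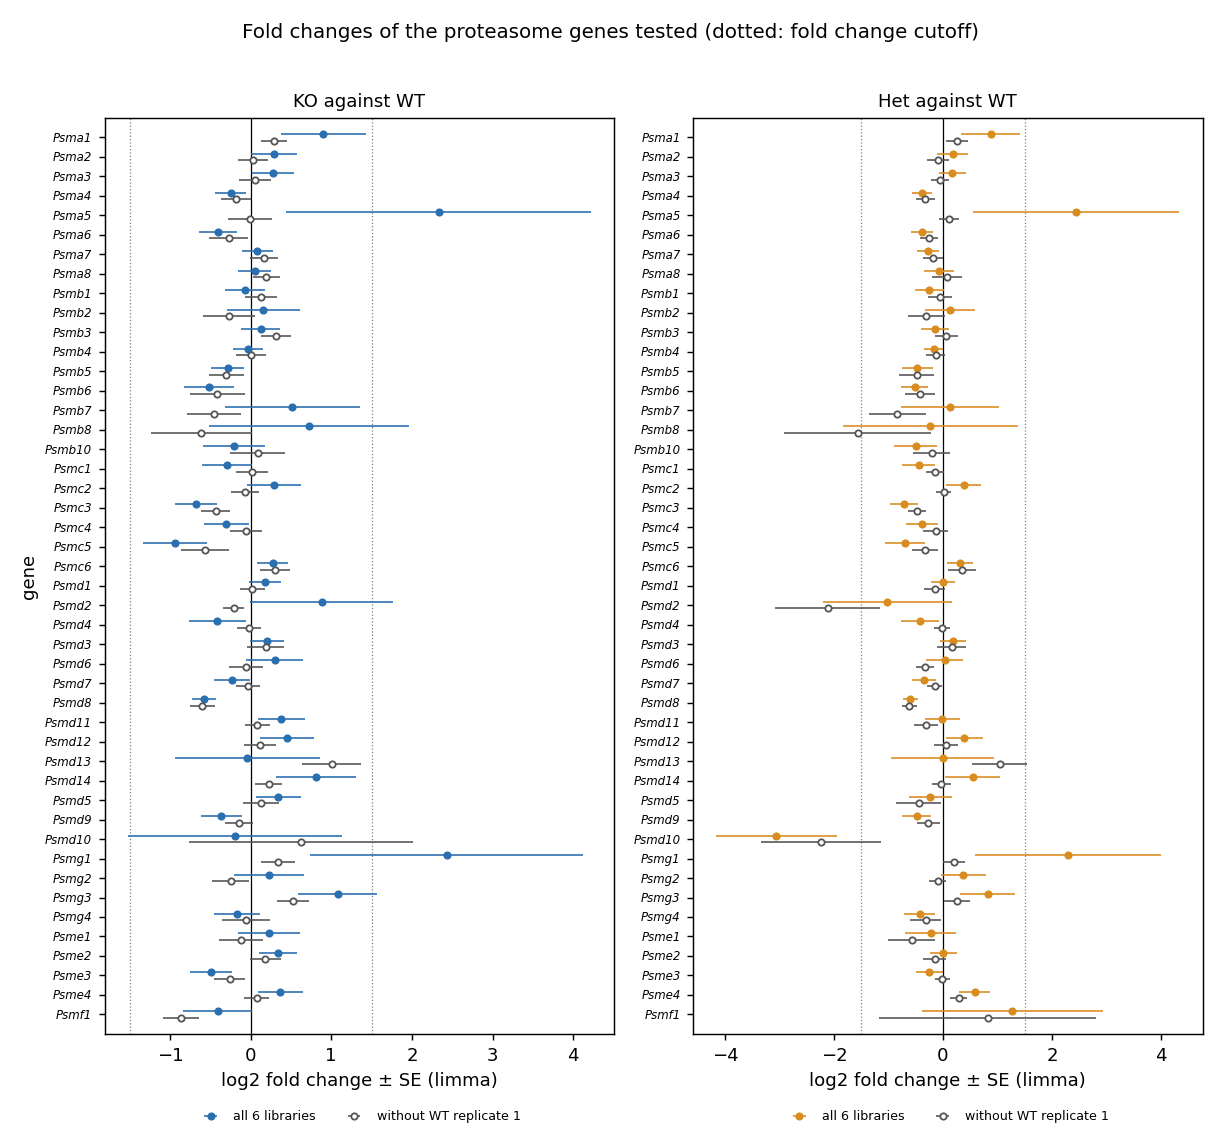
Points are log2 fold changes and bars their standard errors from limma for the 46 proteasome genes tested, in KO against WT on the left and in Het against WT on the right, with all 6 libraries (filled) and without WT replicate 1 (open). The dotted lines mark a log2 fold change of 1.5; Psma5 and Psmg1 lie beyond it only while WT replicate 1, where both are at 0, is included.

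The alpha ring carries the testis variant, and its share beside the somatic form did not separate the 3 genotypes. Psma8, which takes the place of Psma7 in the spermatogenic 20S core, had 645, 535 and 425 normalized counts in WT, 675, 400 and 466 in Het and 564, 526 and 550 in KO. The genotypes overlapped, with the highest and the lowest value both in Het. The log2 fold changes and their standard errors (SE) were 0.05 in KO against WT (0.21, limma adjusted p = 0.935), -0.07 in Het against WT (0.27, limma adjusted p = 0.944) and 0.13 in KO against Het (0.22, limma adjusted p = 0.974). Without WT replicate 1 the changes against WT were 0.20 in KO (SE 0.17) and 0.07 in Het (SE 0.28).

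Psma7, the form used in most tissues, had 462, 421 and 354 normalized counts in WT, 393, 307 and 325 in Het and 492, 411 and 402 in KO. All 3 KO animals lay above all 3 Het animals, while WT overlapped with both. Its log2 change of KO over Het was 0.35 (SE 0.17, limma adjusted p = 0.973). Psma8 made up 56.3% ± 1.89 (SD, n = 3) of the counts of the pair in WT, 59.6% ± 3.35 in Het and 55.8% ± 2.19 in KO. Single libraries ran from 53.4% (95% Wilson interval 50.6 to 56.2, counting error only) in KO replicate 1 to 63.2% (60.3 to 65.9) in Het replicate 1. The KO mean lay 0.50 percentage points below WT, where the single pairs of animals ran from -4.86 to 3.22 (2-sided exact permutation test over 20 splits, p = 0.8). Het lay 3.29 points above WT, and KO lay below Het with a difference of -3.79 points (exact permutation test, p = 0.2 for each), where the smallest p that 3 against 3 animals allow is 0.1.

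Of the other alpha subunits, Psma1 had 38.4 normalized counts in WT replicate 1, 137 and 144 in the other WT animals, 202, 147 and 161 in Het and 173, 161 and 181 in KO. All Het and KO animals lay above all WT animals, but the gap to the other WT animals was small. For KO over WT the log2 change was 0.90 (SE 0.52, limma adjusted p = 0.633) and 0.29 without WT replicate 1, and in Het against WT it was 0.88 (SE 0.54, limma adjusted p = 0.779) and 0.26. Psma5 was at 0 in WT replicate 1, where 3 reads would be 3.71, and between 98.7 and 169 normalized counts in the other 8 libraries. That 1 library, and no genotype, set Psma5 apart. Over the 8 alpha subunits the median log2 change of KO over WT was 0.18, and 0.04 without WT replicate 1, with 0 at an unadjusted p under 0.05 in either case.

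**Figure D3:**
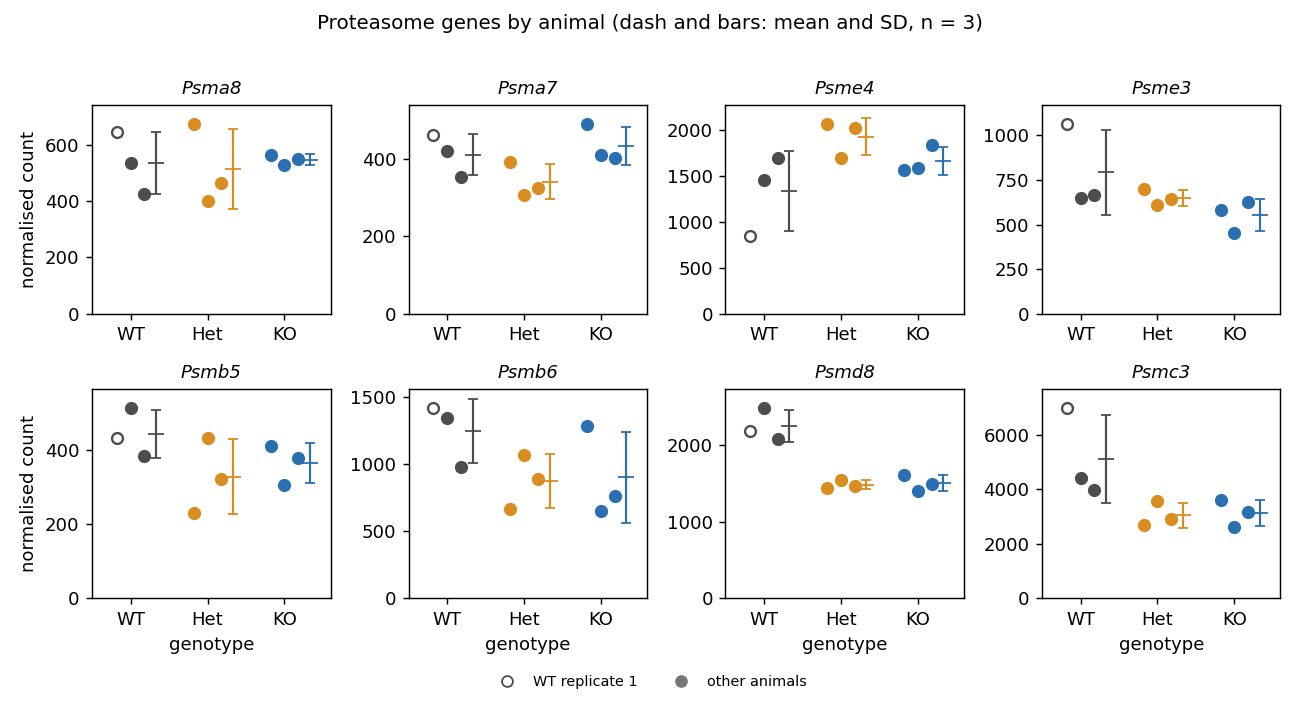
Normalized counts of 8 proteasome genes are plotted for each animal by genotype, with the mean and SD of 3 animals beside the points and WT replicate 1 drawn open. The Het and KO animals of Psmd8, at 1404 to 1614, all lie below the WT animals, at 2076 to 2480, with a narrow spread. Those of Psmc3, at 2624 to 3596, also lie below the WT animals, at 3966 to 6979, with a wider spread in WT. Psma8 overlaps in all 3 genotypes.

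Of the constitutive catalytic subunits, Psmb5 and Psmb6 had lower means in Het and KO than in WT, without passing the test. Psmb5, the chymotrypsin-like subunit, had 432, 513 and 385 normalized counts in WT, 230, 434 and 321 in Het and 410, 305 and 378 in KO. Psmb6, the caspase-like subunit, had 1418, 1347 and 978 in WT, 663, 1065 and 892 in Het and 1286, 654 and 761 in KO. The genotypes overlapped for both genes, and Het replicate 1 and KO replicate 2 were the 2 lowest libraries for each.

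Psmb7, the trypsin-like subunit, had 55.7 normalized counts in WT replicate 1 and 517 and 354 in the other WT animals, 134, 432 and 235 in Het and 385, 214 and 369 in KO. WT thus held both its highest and its lowest library. The 3 genes together summed to 2000 ± 340 normalized counts in WT (SD, n = 3), 1469 ± 452 in Het and 1587 ± 459 in KO. Without WT replicate 1, all 3 log2 fold changes were negative, with a median of -0.41 in KO and -0.48 in Het, and 0 passed an unadjusted p under 0.05. Nek6 lies on the opposite strand and shares 405 exon bases with Psmb7, and 82.1% of the 50-base stretches at the Psmb7 3′ ends also occur in Nek6 as the reverse complement. Nek6 had 89.1, 15.4 and 96.6 normalized counts in WT, 162, 38.2 and 98.4 in Het and 129, 93.8 and 68.8 in KO. It exceeded Psmb7 in WT replicate 1 and Het replicate 1, the libraries with the least Psmb7. Whether the authors counted by strand is not given in the sources used here, so reads of the pair cannot be told apart.

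Of the inducible catalytic subunits, which mark immunoproteasomes, Psmb8 and Psmb9 were near the limit of detection, and Psmb10 lay above it in all 9 libraries. Psmb8 had 0, 21.2 and 10.6 normalized counts in WT, 0, 15.8 and 8.47 in Het and 6.87, 19.3 and 6.26 in KO. Psmb9 had 0, 6.75 and 0 in WT, 0, 6.52 and 0 in Het and 6.87, 13.5 and 4.47 in KO. Both genes were at 0 in WT replicate 1 and Het replicate 1, and KO replicate 2 held the most Psmb9 and WT replicate 2 the most Psmb8. KO replicate 2 and WT replicate 2 were also the highest libraries in the summed macrophage and immune markers (325 and 231 normalized counts, against 106 to 192 in the other 7). The single markers did not all follow their sum. H2-Aa was highest in WT replicate 2 (99.4) and KO replicate 2 (74.5). Cd74 was highest in KO replicate 2 (148) but lowest in WT replicate 2 (4.82). In KO replicate 2, Csf1r was at 86.1, where other libraries reached up to 121, and Adgre1 was at 0. The part of immune cells in the Psmb8 and Psmb9 values was not tested.

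Psmb10, the inducible partner of Psmb7, had 63.1, 45.3 and 25.1 normalized counts in WT, 30.2, 33.5 and 24.3 in Het and 36.9, 42.6 and 29.5 in KO, with overlap between all genotypes. Psmb11, whose protein belongs to cortical thymus epithelium, reached 4.72 normalized counts in Het replicate 1 and was at or under 3 reads in the other 8 libraries. Psmb9 and Psmb11 did not pass the filter in any comparison, and Psmb8 did not in KO against Het. The 4 beta subunits without a catalytic site (Psmb1, Psmb2, Psmb3 and Psmb4) had log2 fold changes from -0.07 to 0.16 in KO against WT and from -0.25 to 0.12 in Het against WT. These ranges were -0.27 to 0.32 and -0.30 to 0.06 without WT replicate 1. For Psmb3 each KO animal (393, 424 and 403 normalized counts) lay above each Het animal (379, 301 and 341), while WT, at 490, 377 and 280, spanned both.

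In the 19S cap, the lid subunit Psmd8 had the smallest unadjusted p of the members tested, in KO and in Het against WT alike, and was not called. Psmd8, the homologue of yeast Rpn12 and a late addition to the lid, had 2178, 2480 and 2076 normalized counts in WT, 1440, 1544 and 1460 in Het and 1614, 1404 and 1491 in KO. All Het and KO animals lay under the lowest WT animal, and Het and KO overlapped. The log2 fold change was -0.58 in KO against WT (SE 0.15, limma adjusted p = 0.610) and -0.60 in Het against WT (SE 0.14, limma adjusted p = 0.779). Without WT replicate 1 it was -0.60 (SE 0.15) and -0.62 (SE 0.14), so this difference did not rest on that library. The sum of the elongating spermatid markers was likewise below every WT animal in each Het and each KO animal. Singly, Tnp2 and Prm2 separated in this way, while Tnp1, Prm1 and Oaz3 overlapped with WT. The part of these markers in the Psmd8 values was not tested. In GRCm38 the Psmd8 gene spans positions 29174188 to 29180701 of chromosome 7, on the minus strand. Its nearest neighbour in the table is Ggn, on the opposite strand 211 bases away. Ggn had 875, 506 and 697 normalized counts in WT, 254, 490 and 523 in Het and 294, 443 and 294 in KO. For Ggn, too, all KO animals lay below all WT animals, while Het overlapped with WT through Het replicate 3. Whether the values of the 2 genes are linked was not tested.

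The ATPase Psmc3 (Rpt5), a member of the ring that unfolds substrates, had 6979, 4418 and 3966 normalized counts in WT, 2672, 3568 and 2900 in Het and 3596, 2624 and 3176 in KO. All Het and KO animals lay under the lowest WT animal, with WT replicate 1 far above the other 8 libraries. The log2 change of KO over WT was -0.68 (SE 0.26, limma adjusted p = 0.610) and -0.43 (SE 0.18) without WT replicate 1, and in Het against WT it was -0.71 (SE 0.25, limma adjusted p = 0.779) and -0.47 (SE 0.17). Psmc3 shares 215 exon bases with Slc39a13 on the opposite strand, but Slc39a13 had 59 to 145 normalized counts.

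Psmc5 (Rpt6), another ATPase of the ring, had 1085, 563 and 453 normalized counts in WT, 346, 508 and 366 in Het and 488, 269 and 302 in KO. WT replicate 1 was again the highest library, WT replicate 2 lay above all mutant animals, and WT replicate 3 overlapped with both mutant genotypes. For KO over WT the log2 change was -0.93 (SE 0.40, limma adjusted p = 0.610), and -0.57 (SE 0.30) without WT replicate 1. Psmc1, Psmc3, Psmc4 and Psmc5 had their highest value in WT replicate 1 and Psmc2 had its lowest there. The 6 genes together summed to 10591 normalized counts in WT replicate 1 and to 5669 to 8218 in the other 8 libraries.

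Psmd14 (Rpn11), the lid's deubiquitinase, had 90.4 normalized counts in WT replicate 1, 338 and 275 in the other WT animals, 324, 285 and 287 in Het and 374, 339 and 359 in KO. Each KO animal lay above each animal of the other genotypes, by a narrow margin apart from WT replicate 1. For KO over WT the log2 change was 0.81 (SE 0.50, limma adjusted p = 0.638), and 0.23 (SE 0.17) without WT replicate 1. Psmd13, another lid subunit, had 229 normalized counts in WT replicate 1 and 25.1 in each of the other WT animals, 71.8, 27.0 and 75.1 in Het and 67.0, 32.9 and 61.7 in KO. All Het and KO animals lay below WT replicate 1 and above the other WT animals. The log2 change of KO over WT was -0.04 (SE 0.90, limma adjusted p = 0.990), and 1.01 (SE 0.36) without WT replicate 1. In Het against WT it was -0.0043 (SE 0.95, limma adjusted p = 0.999), and 1.04 (SE 0.51) without that library. Psmd13 shares 342 exon bases with Sirt3 on the opposite strand, which had 49.5 to 294 normalized counts. The other lid subunits (Psmd3, Psmd6, Psmd7, Psmd11 and Psmd12) had 167 to 1137 normalized counts, and over all 8 lid subunits the median log2 fold change was 0.25 in KO against WT (0.10 without WT replicate 1) and 0.02 in Het against WT (-0.09 without that library).

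In the base, Psmd2 (Rpn1), which docks ubiquitin receptors and shuttle factors, lay at separate levels that did not follow genotype. It had 173 normalized counts in WT replicate 1, 179 in Het replicate 1 and 222 in Het replicate 3, and 1784 and 1579 in the other WT animals, 1461 in Het replicate 2 and 1455, 1432 and 1474 in KO. No library lay between 222 and 1432. Its log2 change of KO over Het was 1.90 (SE 0.78, limma adjusted p = 0.973). Without Het replicate 2 it was 2.86 (SE 0.17, limma adjusted p = 0.0101), the single call of a member under any setting, and a call that leaves 2 of the 3 Het animals. A processed pseudogene, Gm4462, starts 339 bases downstream of Psmd2 on the same strand, and 35.1% of the 50-base stretches at the Psmd2 3′ ends also occur in the annotated transcript Gm5422, so the values of Psmd2 are uncertain. Psmd1 and Psmd4, the other base subunits, had 761 to 1129 and 843 to 2081 normalized counts, and Psmd4 had its highest value in WT replicate 1. At the Psmd1 3′ ends, 72.5% of the 50-base stretches also occur in Gm21972 on the same strand. Gm21972 has no row in the table, so the values of Psmd1 are uncertain as well.

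Among the assembly chaperones, which build the core and the base before they leave the particle, Psmg3 had 23.5 normalized counts in WT replicate 1, 81.0 and 73.4 in the other WT animals, 94.5, 75.4 and 112 in Het and 97.1, 123 and 116 in KO. Each KO animal lay above each WT animal, and Het overlapped with both. The log2 change of KO over WT was 1.08 (SE 0.49, limma adjusted p = 0.612) and 0.53 (SE 0.19) without WT replicate 1. In Het against WT it was 0.82 (SE 0.51, limma adjusted p = 0.779) and 0.26.

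Psmd10 (gankyrin), an X-linked chaperone of the base, had 188, 10.6 and 101 normalized counts in WT, 13.2, 5.59 and 3.17 in Het and 113, 111 and 10.7 in KO. Every Het library lay at the low level, while WT and KO each had 1 low and 2 high libraries. The log2 fold change was -3.06 in Het against WT (SE 1.103, limma adjusted p = 0.779), -2.24 (SE 1.09) without WT replicate 1, and 2.86 in KO against Het (SE 0.998, limma adjusted p = 0.973). Psmg1, which pairs with Psmg2 to start the alpha ring, was at 0 in WT replicate 1 and between 66.6 and 103 normalized counts in the other 8 libraries. Psmg2, Psmg4, Psmd5 and Psmd9 had between 34.0 and 332 normalized counts, and 6 of the 7 chaperones were higher in KO than in Het, with a median log2 fold change of 0.26.

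**Figure D4:**
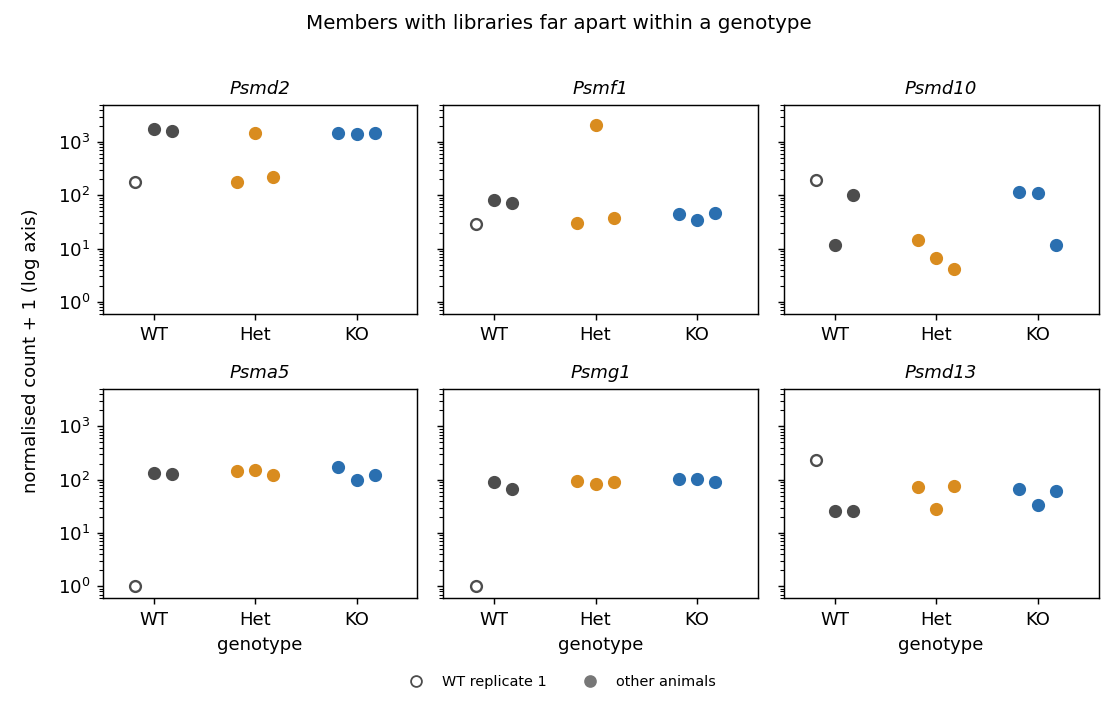
Normalized counts plus 1 on a log axis are plotted per animal for 6 proteasome genes whose libraries lay more than 4-fold apart within a genotype; WT replicate 1 is drawn open. The far libraries differ from gene to gene: WT replicate 1, Het 1 and Het 3 are low for Psmd2, Het 2 is high for Psmf1, 5 libraries are low for Psmd10, and WT replicate 1 is alone in Psma5, Psmg1 and Psmd13.

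Among the activators, Psme4 (PA200), which caps the core without ubiquitin or ATP and is abundant in testis, had 851, 1453 and 1698 normalized counts in WT, 2070, 1699 and 2019 in Het and 1561, 1583 and 1838 in KO. Each Het animal lay above each WT animal, although WT replicate 3 and Het replicate 2 were all but equal, and KO overlapped with both. The log2 change of Het over WT was 0.59 (SE 0.29, limma adjusted p = 0.779), and 0.29 (SE 0.16) without WT replicate 1, and in KO against Het it was -0.21 (SE 0.14, limma adjusted p = 0.973). Psme4 took 42.5% (95% Wilson interval 40.1 to 44.9) of the counts of the activators Psme1 to Psme4 in WT replicate 1, and from 64.2% (62.3 to 66.2) to 73.3% (71.6 to 75.0) in the other 8 libraries. Psme4 had the most counts of the 4 activators in those 8, and Psme3 had the most in WT replicate 1.

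Psme3 (PA28 gamma), the nuclear activator, had 1066, 646 and 665 normalized counts in WT, 697, 610 and 645 in Het and 581, 452 and 627 in KO. All KO animals were below all WT animals, and Het overlapped with both. The log2 change of KO over WT was -0.49 (SE 0.26, limma adjusted p = 0.625), and -0.26 (SE 0.19) without WT replicate 1. For KO over Het it was -0.24 (SE 0.17, limma adjusted p = 0.973). Psme1 and Psme2 (PA28 alpha and beta), the activators paired with immunoproteasomes, had fewer counts than Psme3 and Psme4 in every library: Psme1 had 34.7, 88.8 and 60.8 normalized counts in WT, 80.3, 41.9 and 34.9 in Het and 59.3, 84.2 and 61.7 in KO. Psme2 had 49.5, 73.3 and 65.7 in WT, 61.4, 71.7 and 55.0 in Het and 77.3, 88.0 and 72.4 in KO. For Psme2 each KO animal lay above each Het animal, but 58.8% of the 50-base stretches at its 3′ ends also occur in Psme2b, which has no row in the table.

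Psmf1 (PI31), an inhibitor of the core in vitro, had 2096 normalized counts in Het replicate 2 alone. In the other 8 libraries it had 28.5, 79.1 and 69.5 in WT, 29.3 and 36.0 in Het and 43.8, 33.9 and 44.7 in KO. Its log2 change of KO over Het was -1.68 (SE 1.61, limma adjusted p = 0.973), and it was 0.31 without that library. In KO against WT the change was -0.41 (SE 0.43, limma adjusted p = 0.708), and -0.86 (SE 0.22) without WT replicate 1. The neighbouring genes within 5000 bases, Tmem74b and 4930556L07Rik, did not share the peak in Het replicate 2, with 0 and 105 normalized counts there.

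Within a genotype, members with a mean of at least 10 normalized counts lay more than 4-fold apart in 7 of 46 cases in WT (16.6% of all genes did), in 1 without WT replicate 1 (3.28%), in 2 of 44 in Het (13.4%) and in 1 of 46 in KO (9.2%). The median SD of log2(normalized count + 1) over the members was 0.51 in WT, 0.21 in Het and 0.19 in KO, beside 0.43, 0.34 and 0.32 over all genes. Without WT replicate 1 it was 0.21 in WT, beside 0.19 over all genes. All members together made up 0.645% to 0.756% of the counted reads.

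The 3′ ends, where QuantSeq reads fall, are not unique for a number of these genes. Of the 48 members, 17 share at least 1 stretch of 50 bases within the last 300 bases of their transcripts with another annotated gene, 12 of them more than 10%, mostly with processed pseudogenes. Among them Psma3 shares 36.6% with Gm13835, Psma5 35.5% with Gm12989 and Psmb5 51.4% with Gm3375. The authors removed pseudogenes from the table, so how such reads were assigned cannot be seen here. A further limit is that 11 members overlap an exon of another gene on the opposite strand.

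Proteasome genes are known to be driven together by shared promoter elements, so the promoters were searched for 8 motifs on both strands, in windows of 300 bases that end 50 bases after the start sites of RefSeq (GRCm38.p6). Of the 48 members 40 had an entry, out of 27025 genes. The ETS-type motif CGGAAGT was found in 14 of 40 members (35%) and in 7.2% of all genes. Its letters are shown for Psmd8, Psmd14 and Psme4, whose animals separated by genotype in a comparison above. Other members separated without a match, among them Psma1, Psma7, Psmb3, Psmd5 and Psme2, and Psmc1 and Psmc2 had a match without separating. A link between the motif and the genotypes was not tested. The 30-base windows run 5′ to 3′ on the gene's strand, with the motif or its reverse complement in capitals. The last line shows the antioxidant response motif TGACNNNGC of Psmb5, the core's chymotrypsin-like subunit.
Psmd8, chr7:29180672-29180701, minus strand: ggagcgaacggACTTCCGttcgccattttg
Psmd14, chr2:61711568-61711597, plus strand: cagctcgcctgACTTCCGcctcgcggggac
Psme4, chr11:30771712-30771741, plus strand: tggccccgcccCGGAAGTgacttgaggccg
Psmb5, chr14:54618023-54618052, minus strand: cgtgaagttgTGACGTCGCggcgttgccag

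The GC box GGGCGG was found in 23 of 40 members (57.5%, beside 38.2% of all genes), and the looser antioxidant response motif TGANNNNGC, which includes TGACNNNGC, in 23 (57.5%, beside 45%). TGACNNNGC itself was found in 6 (15%, beside 14%), CCAAT in 14 (35%, beside 41.1%) and the cAMP response core TGACGT in 4 (10%, beside 8.37%). TGACGTCA (2.03% of all genes) and TTTTCGCG (0.263%), an E2F-like site, were found in 0 members. TGACGT is contained in TGACGTCA and can overlap with TGACNNNGC, as it does in the Psmb5 window shown. These matches are descriptions of letters and carry no test. The shares beside them are over all 27025 genes, which were not matched to the members in base composition or expression.

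Other genes of the pathway, taken from a list of proteasome-associated factors (assembly and transport factors, ubiquitin receptors and shuttle proteins, deubiquitinases, the transcription factors Nfe2l1 and Nfe2l2, and the segregase Vcp with its cofactors), gave 0 called genes of 21 tested in each comparison, by limma (0.0352% of all genes were called in KO against WT, 0% in Het against WT and 0.0558% in KO against Het). At an unadjusted p under 0.05, 0 of the 21 were higher in KO against WT (3.04% of all genes) and 1 was lower (5.03%). The lower gene was Nploc4, a cofactor of Vcp, with 284, 323 and 317 normalized counts in WT, 133, 351 and 193 in Het and 208, 237 and 182 in KO. All KO animals were below all WT animals and Het spanned both. For KO over WT the log2 change was -0.56 (SE 0.19, limma adjusted p = 0.610). Without WT replicate 1 it was -0.62 (SE 0.18), and Pomp, the maturation factor of the 20S core, was also lower at that level, with -0.79 (SE 0.27), where it was -0.19 (SE 0.54) with all libraries. These were 2 of 21 genes, beside 4.95% of all genes, with 0 higher (3.93%) and 0 called (0.351%). The median over the 21 genes was -0.03 in KO against WT with 9 of 21 higher, and 0.07 with 13 of 21 higher without WT replicate 1. It was 0.06 in Het against WT (0.08 without that library) and -0.01 in KO against Het.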

How the data were processed

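Testicular total RNA of 3 WT, 3 Het and 3 KO mice, grouped by the sample titles, was sequenced by the authors as QuantSeq 3′ libraries. Per the labels, reads were trimmed with Trim Galore 0.4.5, aligned with HISAT2 2.1 to GRCm38 and assembled and counted with StringTie 1.3.3, and DESeq2 was used. The study's methods add that pseudogenes were removed. In the deposited signal values each gene count is scaled by the size factor of its library: 100% of nonzero values in each library were whole reads within 0.01 read. Reads that QuantSeq places outside the annotated 3′ end, or on both strands, can move between genes in such assembly-based counts.

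Genotypes were compared with limma 3.58.1 (R 4.3.3, eBayes with a trend) on log2(value + 1), over genes with at least 10 in at least 3 of the 6 libraries, with Benjamini-Hochberg adjustment over all genes tested, and called genes had an adjusted p under 0.05 and changed by more than 1.5 on the log2 scale, up or down. The pseudocount makes the fold changes of low genes too small. On the recovered reads of KO against WT, edgeR 4.0.16 called 5 genes and DESeq2 1.42.0 called 100. Psma8 shares were compared by exact permutation. The animals of a group are separate mice by their titles, and the precision of each value is limited by the 3 animals and by 3375546 to 4287335 reads per library. The functions were checked on simulated data.

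Values in every library are given for Psma7 and Psma8, Psmb5 to Psmb11, Psme1 to Psme4, Psmf1, the up to 3 members per comparison and direction with the smallest p, and members more than 4-fold apart within a genotype. Other members are given by range, and Psmb3 and the genes whose animals do not overlap were named after their values were seen. Members, roles and gene lists were chosen with earlier results of these data known. Positions come from GENCODE M21 (GRCm38) and promoter sequences from RefSeq (GRCm38.p6), handled in Python 3.11.15 (pandas 2.3.3, numpy 2.4.6; plots by matplotlib 3.10.9). Alternatives were other pseudocounts, filters, factors, tests and fits, and leaving out each animal.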

Additional observations from a re-analysis of the deposited data

How the results depend on the processing

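The count of members called was 0 under every alternative in KO against WT and in Het against WT. In KO against Het it was 0 under all alternatives but one: without Het replicate 2 it was 1 (Psmd2), so leaving out single animals gave 0 to 1. The median log2 fold change of the members in KO against WT was 0.0012 without WT replicate 1, and leaving out each animal gave 0.0012 to 0.16. The other medians moved by less than the spread between animals.

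Counts over all genes depended more on the processing. In KO against WT, 5 genes were called, 100 with DESeq2, 3 with all 9 libraries in 1 fit, and 0 to 49 when each animal was left out. In Het against WT, 0 genes were called, 2 with a pseudocount of 5, 3 without a filter, 1 with a filter at 30, 1 with TMM factors, 31 with DESeq2, 3 with all 9 libraries, and 0 to 3 when each animal was left out. In KO against Het, 8 genes were called, 5 with a filter at 30, 38 with DESeq2, 4 with all 9 libraries, and 0 to 39 when each animal was left out. The cause of these differences was not tested.

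The correlations of the deviations of same-numbered animals ran from -0.12 to -0.03 in KO against WT and -0.14 to 0.07 in KO against Het. In Het against WT they ran from -0.03 to 0.19, with 0.17 for replicates 1 and 0.19 for replicates 2. Differently numbered animals gave -0.06 to 0.11 in KO against WT, -0.06 to 0.19 in KO against Het and -0.24 to 0.19 in Het against WT. The ranges of same-numbered and differently numbered animals thus overlapped in each comparison. With the replicate number as a block, 0 genes were called in each of the 3 comparisons, and 0 members.

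The sign of the Psma8 share difference between KO and WT turned when 1 animal was left out: the range was -1.49 to 0.68 percentage points, with 0.68 without KO replicate 1 and 0.50 without WT replicate 1. The log2 fold change of Psma8 likewise changed sign, from -0.10 to 0.20 in KO against WT (-0.10 without WT replicate 3), from -0.29 to 0.087 in Het against WT (0.07 without WT replicate 1, 0.087 without Het replicate 2) and from -0.036 to 0.34 in KO against Het (-0.036 without Het replicate 2), and that of Psmf1 in KO against Het was -2.75 to 0.31 (0.31 without Het replicate 2). None of these values had passed its test. The number of animals, 3 a genotype, and the library that stands apart in WT limit the precision of these values.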
